A study of Mus musculus with 16 samples.

Results

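The 10 genes studied here, of iron uptake, storage and export, were compared between sorted cells of the mouse colon that the study names secretory and absorptive. They were chosen by symbol: Cybrd1, Slc11a2, Tfrc, Fth1, Ftl1, Slc40a1, Heph, Hmox1, Ireb2 and Aco1, which is 10 of the 45513 genes counted. All 10 had counts in every library, and 9 passed the filter on low counts. The study labelled the cells that had expressed Atoh1, a transcription factor of the secretory lineage. Its mice were Atoh1(WT)CreERT2; Rosa26tdTom/+, so that a tamoxifen-activated Cre placed downstream of the Atoh1 coding sequence switched on the tdTom reporter, and they received 1 mg of tamoxifen per day for 3 days, a schedule taken from the labels that one section of the study's methods gives differently. From the colon of each of 8 mice, live EpCAM+ epithelial cells were sorted into tdTom+ (secretory) and tdTom- (absorptive) cells, which gave 16 RNA sequencing libraries, 8 per population. Both populations carry the Cre and the reporter and saw tamoxifen. The mice were adults of both sexes on a C57BL/6 background. The crypt-enriched preparation left out the first fraction of detached epithelium, and a cell of any type that had not switched on the reporter counts as tdTom-.

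Iron enters epithelial cells either bound to transferrin, through the transferrin receptor and endosomes, or as ferrous ions after a surface reductase has acted. What is not used is stored in ferritin, a shell of heavy and light chains, or leaves through ferroportin on the basolateral side, where a copper-containing oxidase converts it for binding to transferrin. Iron regulatory proteins bind a hairpin in several of these mRNAs when iron is low: bound in the 5′ untranslated region (UTR) it blocks translation, and bound in the 3′ UTR it slows decay of the mRNA.

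In the strict form searched here that hairpin marks 4 of the 10 genes. It is shown because it sorts them by the side of the mRNA that carries it. An unpaired C, a stem of 5 base pairs (G-U pairs allowed) and the loop CAGTGN were searched on the sense strand of the UTRs of all GENCODE M21 protein-coding transcripts (build GRCm38). In the 5′ UTR the hairpin was in 31 of 20916 genes (0.148%), among them 3 of the 10, namely the ferritins and ferroportin. In the 3′ UTR it was in 129 of 21039 genes (0.613%), among them Tfrc, which holds 4 of them. Each window below lies in 1 exon and is written 5′ to 3′ as DNA, with the loop in capitals.
Fth1, 5′ UTR, chr19:9982733-9982760, plus strand: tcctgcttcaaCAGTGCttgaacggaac
Ftl1, 5′ UTR, chr7:45459779-45459806, minus strand: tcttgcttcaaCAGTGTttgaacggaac
Slc40a1, 5′ UTR, chr1:45925465-45925492, minus strand: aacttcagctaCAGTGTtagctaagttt
Tfrc, 3′ UTR, chr16:32631220-32631247, plus strand: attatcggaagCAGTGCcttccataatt
Tfrc, 3′ UTR, chr16:32631599-32631626, plus strand: attatcgggagCAGTGTcttccataatg
Tfrc, 3′ UTR, chr16:32631664-32631691, plus strand: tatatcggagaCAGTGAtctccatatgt
Tfrc, 3′ UTR, chr16:32631711-32631738, plus strand: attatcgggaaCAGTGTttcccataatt
Both ferritins have the same stem letters, which differ from those of ferroportin. A UTR without a match lacks only these letters in this arrangement. Slc11a2 mRNAs are also known to carry such a hairpin at the 3′ end, but gave no match to this form.

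Library totals ran from 16482530 to 24218367 counts in tdTom+ and from 18318172 to 45791503 in tdTom- cells, where mouse 4 had by far the deepest library. Levels are given as counts per 1000000 (CPM) on TMM-scaled library sizes, and precision at low counts is limited by counting error: 3 counts correspond to 0.124 to 0.182 CPM in tdTom+ libraries, and in tdTom- libraries to 0.0655 to 0.164 CPM. The sort check held in every mouse: Atoh1 ranged from 102 to 166 CPM in tdTom+ cells against 3.18 to 8.89 CPM in tdTom- cells. All 8 goblet cell markers were higher in tdTom+ cells. Of 10 absorptive markers 9 were lower, and their summed level was 570 to 1019 CPM in tdTom+ against 7624 to 16227 CPM in tdTom- cells. All 6 enteroendocrine markers, though of a secretory lineage, were lower in tdTom+ cells, from -0.84 (Gcg) to -3.56 (Tph1) on the log2 scale. Also lower were 4 of 5 stem cell markers (Lgr5 at -0.71, while Lrig1 was higher at 0.43), 3 of 5 tuft cell markers tested and the leukocyte marker Ptprc (-1.52). Of 6 proliferation markers 3 were lower, and all 6 with the mouse as a block, at -0.19 to -0.48 without it. The part of such cells in the differences below, large or small, was not tested. In a bulk population, fewer cells of a type and less RNA per cell cannot be told apart.

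tdTom+ cells held less mRNA for both steps of export and for both ferritin chains. In edgeR's quasi-likelihood test without a mouse term, 5 of the 10 genes were lower than in tdTom- cells (adjusted p under 0.01). These were Slc40a1, Fth1, Heph, Ftl1 and Slc11a2, and each was lower in 8 of 8 mice. None of the 10 was higher, by edgeR or by DESeq2, and without a mouse term none reached an unadjusted p under 0.05 in that direction. Of the 15841 genes tested, 25.5% were lower and 25.5% higher. The median log2 fold change was -0.44 over the 9 genes tested and 0.00 over all genes. For 3 of the 10, Slc40a1, Fth1 and Heph, the ranges over the 8 mice did not overlap between the populations, which was true of 15.3% of all genes tested in this direction. Both populations came from the same mice, and with the mouse as a block Tfrc was lower too. That made 6 of the 10 lower, beside 4574 of the 15841 genes tested.

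**Figure D1:**
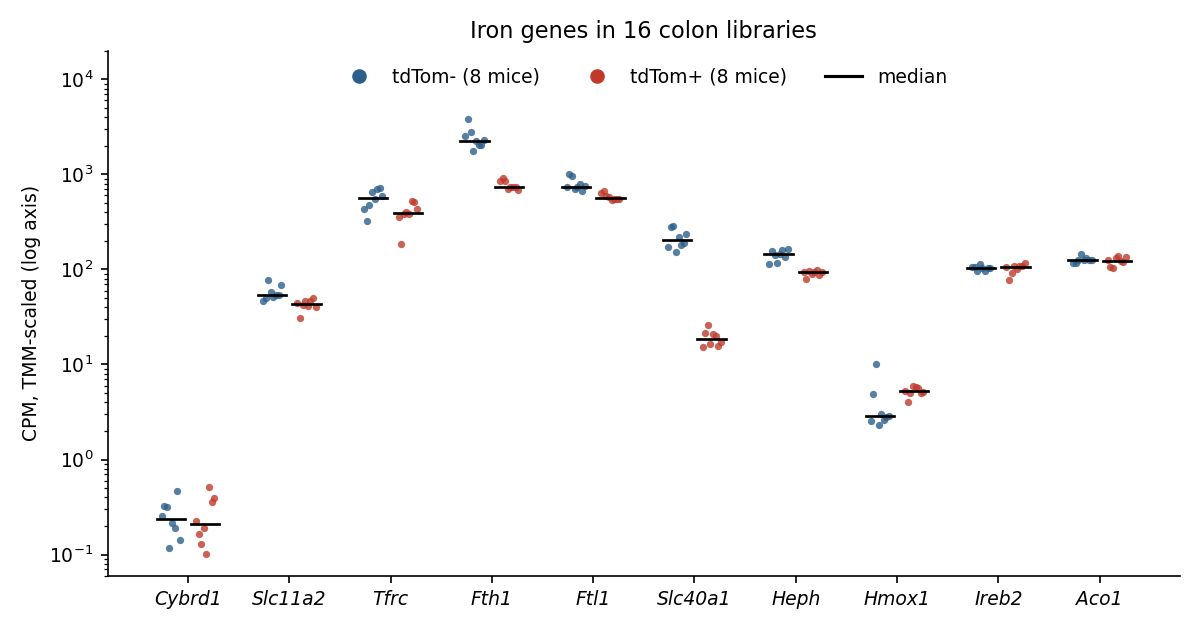
Level of each of the 10 iron genes in every library (CPM, log axis), ordered by role, with tdTom- cells in blue, tdTom+ cells in red, 1 point per mouse and the median as a line. The populations stand clear of each other for Slc40a1, Fth1 and Heph, and they share their range for Ireb2, Aco1 and Cybrd1.

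Ferroportin (Slc40a1, ENSMUSG00000025993), the only known iron exporter of mammalian cells, lies on chromosome 1 from 45908068 to 45926523 on the minus strand of GRCm38. Its level was lowest at 153, in the middle at 205 and highest at 285 CPM in tdTom- cells. In tdTom+ cells the lowest, median and highest levels were 15.4, 18.6 and 26.2 CPM. Every tdTom- library was far above every tdTom+ library. Slc40a1 fell by 3.48 on the log2 scale (standard error 0.14, adjusted p = 2.88e-14, edgeR), which placed it at rank 137 of 15841 from the most negative change. Within mice it ran from -3.75 in mouse 8 to -3.17 in mouse 6. In each mouse, tdTom+ cells held 7.42 to 11.1% of the Slc40a1 level of tdTom- cells, while for the summed absorptive markers that share was 6.28 to 8.75%. Single absorptive markers varied more widely. By mean levels they ran from 2.77% (Aqp8) to 34.0% (Fabp2), with Guca2b higher in tdTom+ cells at 305%. The part of residual absorptive cells in the tdTom+ level was not tested.

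Hephaestin (Heph, ENSMUSG00000031209), the membrane-bound ferroxidase that works beside ferroportin, lies on the X chromosome from 96455359 to 96574485. It was at 115, 144 and 162 CPM (lowest, median, highest) in tdTom- cells. In tdTom+ cells it was at 79.9, 93.5 and 97.6 CPM, a narrow range that ended below the lowest tdTom- library. Heph fell by 0.63 on the log2 scale in tdTom+ cells (standard error 0.07, adjusted p = 2.34e-07, edgeR). The exporter and its oxidase thus moved the same way by very unequal amounts, to 8.95% and 64.4% of the mean tdTom- level.

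Ferritin heavy chain (Fth1, ENSMUSG00000024661), which carries the ferroxidase activity of the shell, had the highest level of the 10 as counted, with copies of the light chain left out. On chromosome 19, the exons counted run from 9982703 to 9985092. Fth1 was at 1761, 2267 and 3790 CPM in tdTom- cells. The tdTom+ libraries held 691, 739 and 907 CPM. No tdTom+ library came near the lowest of the tdTom- libraries. Fth1 fell by 1.65 on the log2 scale (standard error 0.13, adjusted p = 4.55e-10, edgeR), from -2.06 in mouse 2 to -1.33 in mouse 4.

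Ferritin light chain (Ftl1, ENSMUSG00000050708), which helps to form the iron core, is on chromosome 7 from 45457944 to 45459884. It was at 670, 740 and 1004 CPM in tdTom- cells. In tdTom+ cells it was at 544, 569 and 677 CPM, and only the highest tdTom+ library was above the lowest tdTom- one. Ftl1 fell by 0.44 on the log2 scale (standard error 0.09, adjusted p = 0.00020, edgeR), a smaller change than that of the heavy chain.

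The subunits therefore differed in their balance. The ratio of Fth1 to Ftl1 counts was 2.53, 3.05 and 3.77 (lowest, median, highest) in tdTom- cells and 1.204, 1.33 and 1.43 in tdTom+ cells, with every mouse lower in tdTom+. The mean difference was -1.195 on the log2 scale (standard error 0.07), with p = 0.0001554 in a two-sided exact permutation test over all regroupings, the smallest p they can give. Flipping signs within mice gave p = 0.0078125, again the smallest possible (exact, 256 sign flips).

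**Figure D2:**
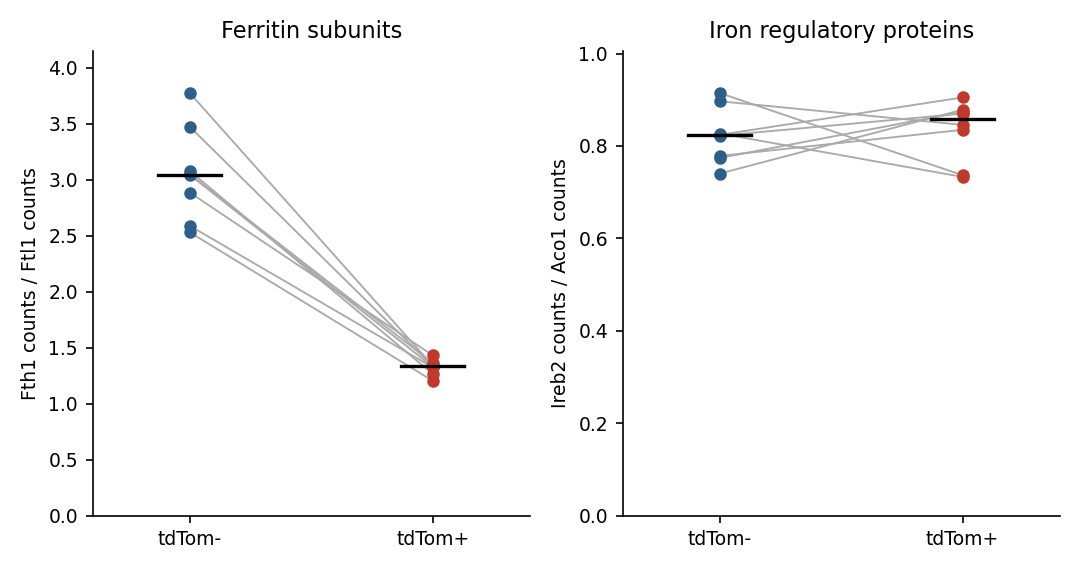
Ratio of raw counts in each library for the ferritin chains (left) and the iron regulatory proteins (right), with lines joining the libraries of a mouse and black bars for medians. The Fth1 to Ftl1 ratio dropped in all 8 mice, from a median of 3.05 to 1.33, whereas the Ireb2 to Aco1 ratio crossed between mice.

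Light-chain reads are shared among near-identical copies, and the authors counted primary alignments of reads that map to several places. Ftl1 itself took 64.6 to 66.0% of the counts of 4 light-chain loci, and the retrocopy Ftl1-ps1 on chromosome 13, annotated as protein-coding, took 26.6 to 28.1%. Its hairpin window is letter for letter that of Ftl1. The shares hardly moved between libraries, and Ftl1-ps1, Ftl2-ps and Ftl1-ps2 fell by 0.44, 0.47 and 0.47 on the log2 scale. With all 3 copies added to Ftl1, an alternative chosen after seeing the data, the log2 fold change was -0.44. The levels of Ftl1 and its ratio to Fth1 leave these copies out, so light-chain reads are understated there. Mean tdTom+ levels were 585 CPM at Ftl1 and 246, 55.3 and 9.60 CPM at Ftl1-ps1, Ftl2-ps and Ftl1-ps2. Together these exceed the 775 CPM of Fth1, while in tdTom- cells Fth1 at 2438 CPM stayed above them. A small RNA gene on the same strand, Gm22133, also covers 109 of the 1340 exon bases of Ftl1, where reads are not counted for either. For the heavy chain only Fth1 and the copy Fth-ps2 were compared, with at least 99.98% of their counts on Fth1 and 0 to 4 counts per library on Fth-ps2. Other heavy-chain copies were not examined.

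The divalent metal transporter DMT1 (Slc11a2, ENSMUSG00000023030), which moves ferrous iron across the apical or endosomal membrane, is on chromosome 15 from 100387898 to 100425072. It was at 46.8, 53.9 and 78.1 CPM in tdTom- cells and at 30.9, 43.7 and 50.1 CPM in tdTom+ cells. The ranges overlapped, but within every mouse the tdTom+ library was the lower one. Slc11a2 fell by 0.42 on the log2 scale (standard error 0.10, adjusted p = 0.00133, edgeR). The change ran from -0.87 in mouse 3 to -0.07 in mouse 1.

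The transferrin receptor (Tfrc, ENSMUSG00000022797), the main route for transferrin iron, is on chromosome 16 from 32608920 to 32632794. Levels in tdTom- cells were 325, 570 and 716 CPM, and in tdTom+ cells 187, 397 and 525 CPM. Mouse 2 was the lowest in both populations. With a log2 fold change of -0.47 (standard error 0.18), Tfrc did not pass the threshold with the mice left out of the model (adjusted p = 0.0254, edgeR), although it was lower in 8 of 8 mice. With the mouse as a block it was -0.49 (standard error 0.06, adjusted p = 1.35e-06, edgeR), which brought the number of lower genes from 5 to 6. Without mouse 2 the adjusted p was 0.00342 (edgeR) in the model with no mouse term, and over all settings tried it ran from 1.35e-06 to 0.186.

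Cytochrome b reductase 1 (Cybrd1, ENSMUSG00000027015), the brush border ferric reductase known from the duodenum, lies on chromosome 2 from 71117923 to 71142926. It had 2 to 10 counts in tdTom+ and 3 to 9 counts in tdTom- libraries, 41 and 43 in all. At this depth Cybrd1 was too low to test, and no difference was detectable.

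Heme oxygenase 1 (Hmox1, ENSMUSG00000005413), which opens the heme ring and frees its iron, is on chromosome 8 from 75093591 to 75100596. It was the only one of the 9 genes tested with a positive estimate in the fit without a mouse term. Hmox1 was at 2.33, 2.86 and 10.1 CPM in tdTom- cells and at 4.01, 5.24 and 5.96 CPM in tdTom+ cells. Of the tdTom- libraries, mouse 3 at 10.1 CPM and mouse 2 at 4.88 CPM stood above the remaining 6, which were at 2.33 to 3.02 CPM. Its log2 fold change of 0.45 (standard error 0.25, adjusted p = 0.128, edgeR) did not pass, with 6 of 8 mice higher in tdTom+ cells. Without mouse 3 it was 0.82 (standard error 0.15, adjusted p = 0.000134, edgeR), and Hmox1 then counted as higher. In mice 5 to 8 alone it was 0.94, in mice 1 to 3 alone -0.29, and over all settings tried the adjusted p ran from 4.22e-05 to 0.582.

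Macrophages are rich in Hmox1, and beside its values stands the summed level of 10 macrophage markers, which ran from 40.5 to 57.1 CPM over tdTom+ libraries and from 39.5 to 70.9 CPM over tdTom- libraries. Of the tdTom- libraries, mouse 2 had the highest sum and mouse 3 was at 52.6 CPM. Cd14 was the largest part of the sum in every tdTom- library, at 26.7 to 40.8 CPM. Mouse 2 was the highest tdTom- library for Lyz2 (19.6 CPM), C1qb (2.12 CPM), Csf1r (2.01 CPM) and Adgre1 (0.814 CPM). Mouse 3 had 2.38 CPM of Lyz2, 0.159 CPM of C1qb, 5.56 CPM of Itgam and no count of Adgre1. Its Csf1r (0.74 CPM), C1qa (1.01 CPM) and Mrc1 (1.43 CPM) were each exceeded in a single tdTom- library. The same held for its Cd68 (2.38 CPM), Cd14 (38.8 CPM) and Cd163 (0.106 CPM). The part of macrophages in the Hmox1 levels was not tested. The 8 erythroid markers summed to no more than 0.976 CPM in any tdTom+ library, and to no more than 1.05 CPM in any tdTom- library. No marker of either list was at 0 in all libraries.

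**Figure D3:**
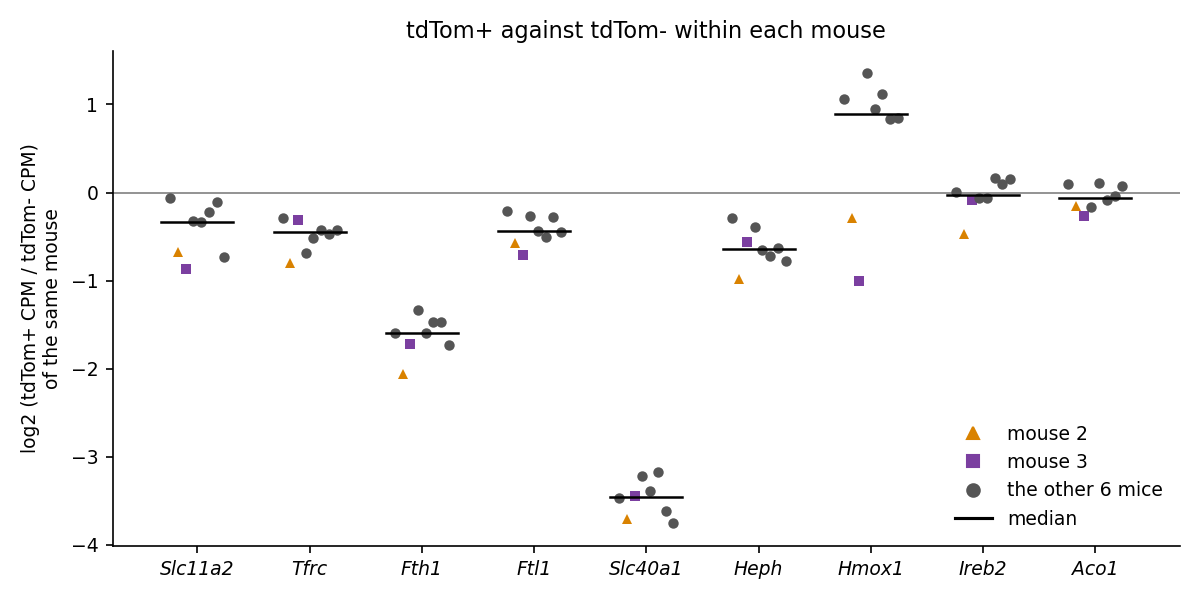
Log2 ratio of the tdTom+ to the tdTom- level in each mouse for the 9 genes that passed the filter, with mouse 2 as orange triangles, mouse 3 as violet squares, the other 6 mice as grey circles and the median as a line. All 8 mice lie below 0 for Slc11a2, Tfrc, Fth1, Ftl1, Slc40a1 and Heph, and for Hmox1 mice 2 and 3 lie below 0 while the other 6 lie between 0.83 and 1.35.

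The mRNAs of the iron regulatory proteins did not pass the test. Ireb2 (ENSMUSG00000032293, chromosome 9 from 54863755 to 54912534) encodes IRP2, which is degraded when iron is plentiful. It was at 96.6, 105 and 114 CPM in tdTom- and at 77.3, 107 and 117 CPM in tdTom+ cells. Aco1 (ENSMUSG00000028405, chromosome 4 from 40143081 to 40198338) encodes IRP1, which doubles as cytosolic aconitase. It was at 117, 126 and 146 CPM in tdTom- and at 105, 124 and 137 CPM in tdTom+ cells. The log2 fold changes were -0.02 (standard error 0.07, adjusted p = 0.790) for Ireb2 and -0.05 (standard error 0.06, adjusted p = 0.519, edgeR) for Aco1, and 4 and 3 of 8 mice were higher in tdTom+ cells. The ratio of Ireb2 to Aco1 counts was 0.740 to 0.915 in tdTom- and 0.733 to 0.905 in tdTom+ cells, a mean difference of 0.02 on the log2 scale (standard error 0.06, p = 0.701, two-sided exact permutation test).

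Set out by hairpin, the 3 mRNAs with it in the 5′ UTR had log2 fold changes of -3.48 (Slc40a1), -1.65 (Fth1) and -0.44 (Ftl1). The mRNA with a match in the 3′ UTR, Tfrc, had -0.47, and Slc11a2, known for a 3′ hairpin that the search did not match, had -0.42. Genes of both classes had negative estimates, and the mRNAs for the proteins that bind the hairpin had estimates near 0. Binding and translation were not measured, and the part of the hairpin in these changes was not tested.

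Divided by exon length, as counts per kb per 1000000, Fth1 ranked first in both populations, at 895 ± 91.6 in tdTom+ and 2815 ± 730 in tdTom- cells (mean ± SD, n = 8). Ftl1, without its copies, followed at 436 ± 35.4 and 591 ± 93.2, and Tfrc at 64.7 ± 17.1 and 89.9 ± 22.2 per kb. Each of these was clear of its neighbour in every library, except that the lowest Tfrc level in tdTom+ cells, in mouse 2, met the highest of Aco1. In tdTom- cells Aco1, Slc40a1, Heph and Ireb2 came next at 28.2, 23.8, 18.5 and 17.9 per kb, and neighbours in that order overlapped. In tdTom+ cells Aco1, Ireb2 and Heph came next at 27.3, 17.6 and 11.9 per kb with no overlap between neighbours. Slc40a1 moved from the fifth place in tdTom- to the ninth in tdTom+ cells, where it was at 2.13 per kb, overlapping with Hmox1 at 2.43 per kb. Its counted exons span 9000 bases in the files, which include retained introns, so its level per kb is understated in both populations. Cybrd1 was last at 0.0486 and 0.0476 per kb.

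Mice differed from each other in some of these genes. Fth1 was at 843 to 907 CPM in the tdTom+ libraries of mice 1 to 3, whose numbers form a series of their own, and at 691 to 740 CPM in mice 5 to 8. In tdTom- cells the same mice held 2541 to 3790 and 2039 to 2297 CPM. Fth1 was the only one of the 10 with mice 1 to 3 above mice 5 to 8 in both populations, which was true of 0.978% of all genes tested. Tfrc in tdTom- cells went the other way, at 325 to 482 CPM in mice 1 to 3 and 554 to 716 CPM in mice 5 to 8, as did 4.84% of all genes in that population. Within each series the tdTom+ library remained below the tdTom- library of the same mouse for both genes. The labels do not say what the series stand for, and their part in these levels was not tested.

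Of 6 relations between members across mice, 4 involved Fth1 or tdTom- Tfrc, whose levels separate by number series, so no coefficient over all mice is given for them and the series are too small for one of their own. In tdTom+ cells Tfrc and Slc11a2 had Pearson's r = 0.91 (n = 8, exact permutation p = 0.0111, adjusted over 6 relations 0.0222) and Spearman's rho = 0.67 (exact permutation p = 0.0831, adjusted 0.166). Without mice 2 and 6, the farthest in Tfrc, r was 0.55, so the relation rests on those mice. The number series barely overlapped here too. Tfrc was at 187 to 388 CPM in mice 1 to 3 and 386 to 525 CPM in mice 5 to 8. Slc11a2 was at 30.9 to 44.7 and 40.7 to 50.1 CPM, and the part of the series in this r was not tested. Tfrc and Slc40a1 in tdTom+ cells had r = -0.33 (exact permutation p = 0.443, adjusted 0.531) and rho = -0.24 (exact permutation p = 0.582, adjusted 0.582), with r = -0.31 without the same mice.

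Other genes of iron and heme handling were taken from a list of 75, of which 60 were tested. The test called 17 higher and 19 lower, and the median log2 fold change was -0.02. Over all genes tested 25.5% were higher and 25.5% lower, so the list as a whole stood near those shares. The counts by role below are to be read beside the same shares.

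Of 8 genes of uptake outside the transferrin route, 5 were tested in edgeR and all 5 were higher in tdTom+ cells. The filter on low counts had a part in this count, since Slc11a1 was low in tdTom- cells. Its median there was 0.351 CPM (4 to 13 counts per library) against 0.921 CPM in tdTom+ cells, so it entered mainly through the tdTom+ libraries. Lactoferrin (Ltf), which edgeR's filter on low counts left out, went the other way, with a mean of 0.125 CPM against 0.364 CPM in tdTom- cells. Ltf was lower in 8 of 8 mice, with a DESeq2 log2 fold change of -1.54 (adjusted p = 0.00213). It had only 1 to 4 counts per tdTom+ library, near the floor, and in mouse 2 the log2 difference was -0.001. Scara5, a receptor for ferritin, reached 9.0 ± 3.76 CPM in tdTom+ cells against 1.18 ± 0.286 CPM in tdTom- cells (SD, n = 8 each), a log2 fold change of 2.91 (standard error 0.23, adjusted p = 6.91e-10, edgeR). The metal transporters Slc39a8 (ZIP8) and Slc39a14 (ZIP14), which accept iron and zinc among other ions, had log2 fold changes of 1.74 and 0.79. Slc22a17, a receptor for lipocalin-bound siderophores, had 1.36. Slc11a1, the phagosomal metal transporter of macrophages, had 1.45 at mean levels of 1.03 and 0.376 CPM, near the floor, and was higher in 7 of 8 mice, and of the 10 macrophage markers only 5 had enough counts to test. Of these Cd68 was lower in tdTom+ cells and none was higher, with Cd14 at a log2 fold change of 0.15 (adjusted p = 0.156, edgeR). C1qa, too low to test in edgeR, had a mean of 0.506 CPM against 0.403 CPM in tdTom- cells. DESeq2 put C1qa at 0.37 (adjusted p = 0.580) and Cd163 at -0.82 (adjusted p = 0.575). DESeq2 called Adgre1, Csf1r and C1qb lower, at -4.09, -3.33 and -2.90 (adjusted p = 0.00143, 9.5e-05 and 0.00086). Their tdTom+ libraries held 1, 9 and 10 counts in all, near the floor. Lyz2 was also lower in DESeq2, at -2.13 (adjusted p = 0.00785). The part of macrophages in the Slc11a1 level was not tested.

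In the rest of the transferrin cycle, 1 of 7 genes tested passed, the reductase Steap4 at -0.80. Transferrin (Trf) had a log2 fold change of -0.44 (adjusted p = 0.0229, edgeR), Hfe, the partner of transferrin receptors that is altered in hemochromatosis, 0.18 (adjusted p = 0.0603) and the endosomal reductase Steap3 -0.15 (adjusted p = 0.0425), and none of them passed. Transferrin receptor 2 (Tfr2) had at most 5 counts in a library.

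Of the ferritin helpers, the iron chaperone Pcbp1 was higher at 0.35, while Ncoa4, which takes ferritin to autophagy, was at 0.11 (adjusted p = 0.148, edgeR). No gene of the further export list passed edgeR's filter on low counts. The ferroxidases Cp and Hephl1 reached at most 11 and 7 counts in a library, and the hepcidin genes Hamp and Hamp2 at most 3 and 18. In DESeq2, which tests lower counts, Hamp2 was higher in tdTom+ cells, with a log2 fold change of 1.75 (adjusted p = 0.000837, higher in 8 of 8 mice, ranges overlapping), and the other 5 did not pass.

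Of 16 heme genes tested 5 were higher and 7 lower. Among the transporters, Abcg2, an exporter of heme and porphyrins, fell by 2.49, the porphyrin transporter Abcb6 by 1.83 and Slc46a1, the proton-coupled folate transporter that also carries heme, by 1.43 on the log2 scale. Slc48a1, which carries heme out of endosomes and lysosomes, was higher at 0.80. In heme synthesis the first enzymes Alas1 and Alad fell by 1.33 and 0.39, while Uros, Urod and Cpox rose by 0.81, 0.37 and 0.86. Ppox had 0.04 (adjusted p = 0.772, edgeR), and ferrochelatase (Fech), which inserts the iron, rose by 0.47. Of the genes that act after heme oxygenase, Blvrb fell by 0.61 and Blvra had 0.06 (adjusted p = 0.523, edgeR).

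Among 17 genes of mitochondrial iron and iron-sulfur clusters 4 were higher and 4 lower. With the mouse as a block Hscb, a chaperone of cluster assembly, was lower too (adjusted p = 0.00754, edgeR, lower in 8 of 8 mice). Both mitoferrins, which bring iron into mitochondria, were lower: Slc25a37 by 0.62 and Slc25a28 by 0.51. Among 12 regulators 7 were lower and 2 higher. Epas1 (HIF-2alpha), which drives iron uptake genes in the duodenum, fell by 0.77, and the prolyl hydroxylase Egln3 by 1.72. Nfe2l2 (NRF2), an activator of the ferritin genes and Hmox1, reached 119 ± 8.56 CPM in tdTom+ cells against 219 ± 9.59 CPM in tdTom- cells (SD, n = 8 each), a log2 fold change of -0.88 (standard error 0.05, adjusted p = 8.12e-12, edgeR). Bach1, a repressor of Hmox1, had 0.16 (adjusted p = 0.0146, edgeR). Fbxl5, the iron-sensing subunit of the ligase that removes IRP2, rose by 0.34 (adjusted p = 8.29e-05, edgeR).

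**Figure D4:**
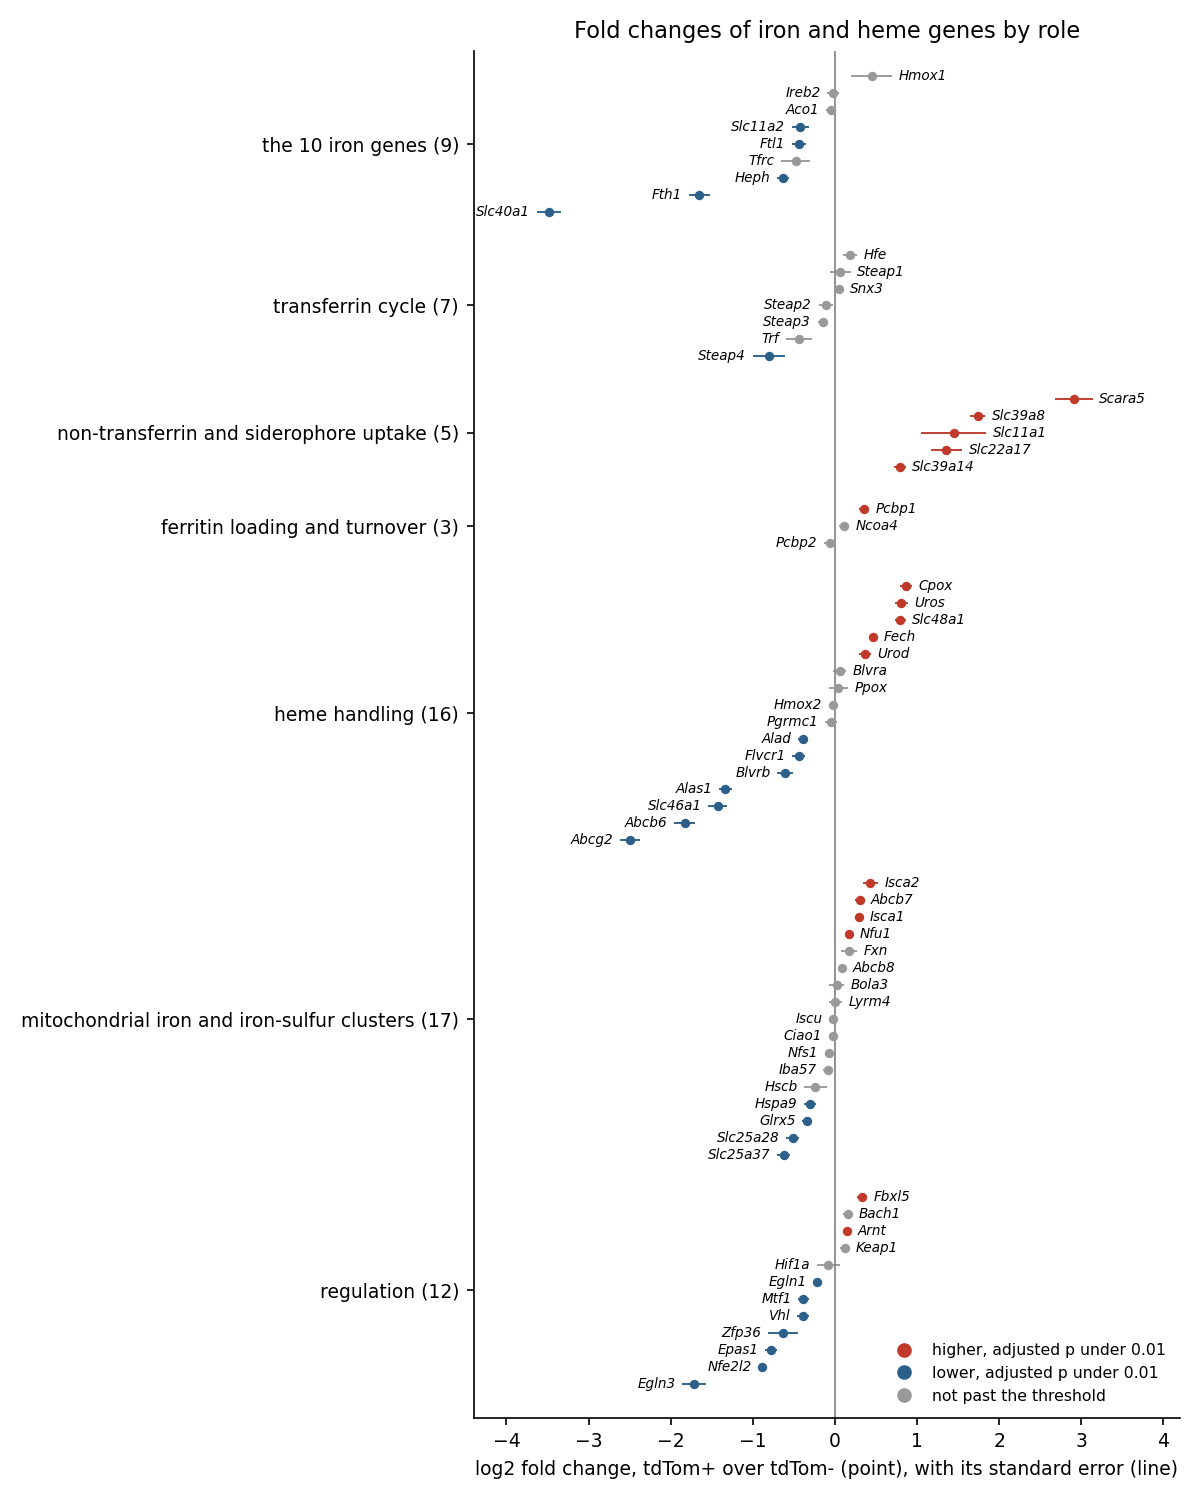
Log2 fold change of tdTom+ over tdTom- cells with its standard error for the 9 iron genes tested and the 60 other genes, grouped by role. Red marks higher, blue lower and grey not past an adjusted p of 0.01 (edgeR without a mouse term). Slc40a1 at -3.48 is the most negative of all, Scara5 at 2.91 the most positive, and the 5 tested genes of uptake outside the transferrin route all lie to the right of 0. Ltf of that role, lower in tdTom+ cells, is not drawn because the filter on low counts left it out.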

How the data were processed

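RNA of 16 sorted colon populations was analysed, 2 from each of 8 mice. Per the file headers and notes, the authors made stranded mRNA libraries, mapped their single-end reads to GRCm38.p3 using TopHat2 2.1.1 and counted exonic reads per gene with featureCounts (1.5.0-p1 in the headers, Subread 1.5.2 in the notes), on the reverse strand and from primary alignments. The deposited values are these raw counts.

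Symbols came from GENCODE M21. The counts were compared with edgeR 4.0.16 (R 4.3.3): filterByExpr, TMM, glmQLFit and glmQLFTest without a mouse term, Benjamini-Hochberg adjustment over 15841 genes and a threshold of 0.01. Standard errors were derived from the fold change and F. Counts measure these 8 mice, and the floor of 3 counts covers counting error only. On simulated counts the test recovered 98 of 100 genes changed 2-fold and 100 of 100 changed 4-fold, with 2 false calls. The simulation had no differences between mice and changed only 200 genes, picked among the better counted. It therefore does not tell how the test recovers smaller changes or works on mice that differ. Libraries with the same number come from 1 mouse, and their deviations from the group means correlated at 0.22 to 0.41 over genes, against at most 0.17 for different mice. No 2 libraries of a group agreed within sampling noise.

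The genes and lists were chosen with earlier results of these data known, and 1 gene of the other list was left out and is not reported here. Named are the 10 genes, those of the other list with the 6 largest changes per direction (past the threshold, at least 100 counts, same direction in 8 mice), a fixed set of its known regulators and carriers, and members of each role beside its count, which were chosen after their values were seen. Alternatives were the mouse as a block, RLE and upper-quartile normalization, no filter, at least 10 counts in every library, DESeq2 1.42.0, an adjusted p of 0.05, each mouse left out, each number series alone, and ferritin copies added.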

Additional observations from a re-analysis of the deposited data

Results flagged for a closer look

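The tdTom+ library of mouse 2 stood below the other 7 of its group for Tfrc (7.55 log2 CPM, the others 8.47 to 9.04), Slc11a2 (4.95 log2 CPM, the others 5.35 to 5.65) and Hmox1 (2.04 log2 CPM, the others 2.35 to 2.60). Its gap to the nearest library passed Dixon's 95% limit for 8 samples in each of these. In all, 24 groups of 8 were examined and 3 passed, where chance gives about 1 in 20. The cause was not tested.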

How the results depend on the processing

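The 17 values and counts that answer a comparison were recomputed 297 times, of which 272 gave the same direction and call (counts: a change of at most 1.5 times), and 8 reversed. Slc40a1, Heph and Fth1 kept theirs in every setting run. With mice 1 to 3 only, 2546 genes were higher and 2559 lower, 3 of the 10 iron genes and 10 of the other iron genes were lower, Slc11a2 (-0.56) and Ftl1 (-0.51) lost the threshold, and Hmox1 (-0.29) and the Ireb2 to Aco1 ratio (-0.074) reversed; fewer samples entered that fit. With mice 5 to 8 only, Tfrc (-0.46) and Hmox1 (0.94) passed, which made 1 gene higher, and Ireb2 (0.092) and Aco1 (0.019) reversed. In the exact test the Fth1 to Ftl1 ratio could not reach 0.01 with mice 1 to 3 (-1.29, p = 0.1) or 5 to 8 (-1.15, p = 0.0286), the smallest p these sizes allow.

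Tfrc passed with the replicate block (-0.49), at an adjusted p under 0.05 (-0.47) and with the block and without mouse 4 (-0.44, chosen after seeing the data). The block changed no other call on the 10 genes, and of the other iron genes it called 20 rather than 19 lower, with Hscb added. With 1 mouse left out, Tfrc ran from -0.50 to -0.42, Hmox1 from 0.34 to 0.82, Ireb2 from -0.046 to 0.041 and the Ireb2 to Aco1 ratio from -0.011 to 0.069. Ireb2 reversed without mouse 2 (0.041) or 4 (0.0030), and that ratio without mouse 3 (-0.00079) or 6 (-0.011). Then 0 to 1 of the 10 were higher, the 1 being Hmox1 without mouse 3, and 5 to 6 lower. Of 342 values for 19 other named genes none reversed and 340 kept their call. Depth limits Cybrd1, Slc11a1, Ltf and the hepcidin genes.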
